A study of Mus musculus with 2 samples.

Results

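Extracellular ATP and adenosine signalling in the air pouch membrane was followed through 10 genes chosen by name: the ATP release channel Panx1, the surface enzymes Entpd1 and Nt5e, the ATP-gated channels P2rx4 and P2rx7, the nucleotide receptors P2ry2 and P2ry6, and the adenosine receptors Adora1, Adora2a and Adora2b. Of these, 7 had at least 1 probe set that the platform annotation gives to that gene alone, 16 probe sets in all among the 45101 on the array, while 18193 genes had such a probe set. For Adora1, Adora2a and Adora2b the annotation used here names no probe set, and they are not analysed here. Of the 16 probe sets, 11 were above the detection floor in both pools, 4 in the MSU pool alone and 1 in the control pool alone.

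The samples were pools of RNA from air pouch membranes of female Balb/C mice aged 6 to 8 weeks. An air pouch is a cavity made under the skin of the back with injected air, whose lining resembles the synovial membrane of a joint. The control pool held membranes of 3 mice whose pouches had received 1 ml PBS, and the MSU pool those of 3 mice that had received 2 mg monosodium urate (MSU) crystals, the crystals of gout, in 1 ml PBS, with dissection 9 h after injection in both. Each pool was hybridized to 1 Affymetrix Mo430_2 array, so no replicate error could be computed, no test was possible, and all differences below describe these 2 pools. In whole membranes, fewer cells of a type and less RNA per cell cannot be told apart.

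The values were linear signals per probe set, a group of short oligonucleotides that reads a transcript. The detection floor of an array, set from the number of probe sets that were called detected on it, was a signal of 64.6 for control and 74.1 for MSU. A fold is given where both signals reached their floor. Where a single pool did, the fold is a bound set against the floor of the other and is written "at least", and any other comparison is a plain ratio. Each gene is read on the probe set that was brightest in the mean log2 signal of both pools, and it is called measured where that probe set gave a fold or a bound. As a scale for these ratios, probe sets reading 1 gene differed from each other with an SD of 0.22 (log2) at the median of 4002 genes, a spread to which mice do not contribute. For RNA quality, Gapdh gave 3'/5' ratios of 0.745 in control and 0.741 in MSU. The 18 probe sets for hybridization spike-ins all gave more signal with the MSU pool, 1.37-fold at the median, and scaling on them would lower every log2 ratio by 0.46.

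ATP leaves stressed or dying cells and acts as a danger signal through the P2X channels, which open when ATP binds, and through P2Y receptors, which are coupled to G proteins. On the cell surface CD39, the product of Entpd1, cuts ATP and ADP to AMP, and CD73, the product of Nt5e, cuts AMP to adenosine. Adenosine acts on its own receptors, several of which raise or lower cyclic AMP, and is known for damping the activity of neutrophils and macrophages. It is cleared by uptake into cells and by the enzymes adenosine deaminase and adenosine kinase.

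The adenosine-forming enzyme Nt5e and the nucleotide receptor P2ry2 passed 2-fold upwards in the MSU pool, and the other 5 measured genes lay within 2-fold. Nt5e was 4.03-fold higher, Entpd1 1.76-fold higher and P2ry2 at least 2.31-fold higher, whereas Panx1 was 1.61-fold lower. By the fixed size of 2-fold, 2 of the 7 measured genes were higher (Nt5e and P2ry2) and 0 were lower. Among all 11155 measured genes, 3.7% passed this size upwards and 4.29% downwards. Over the 6 genes with a fold the median log2 ratio was -0.08, and it was the same to this precision with the bound of P2ry2 included, beside -0.05 over the 10045 genes with a fold. Under scaling on the spike-ins, Nt5e alone of the 7 was at least 2-fold higher and Panx1 at least 2-fold lower, while over all genes 200 were higher and 1787 lower in place of 413 and 478.

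**Figure D1:**
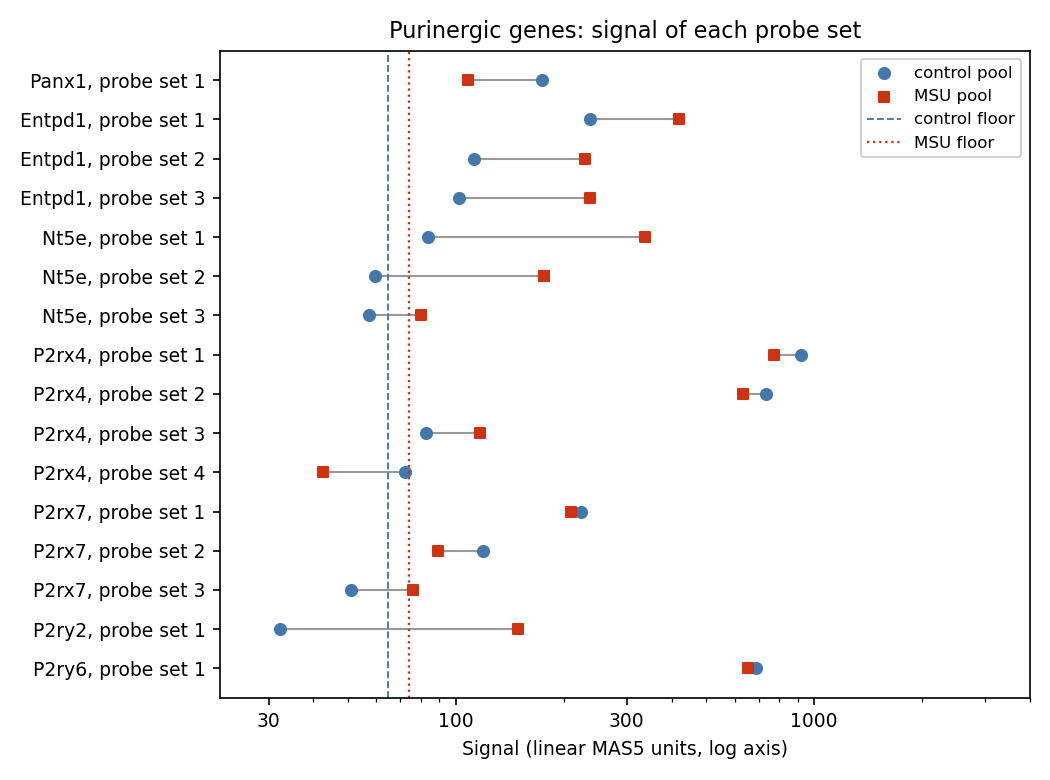
Signal of each probe set (x axis, linear MAS5 units on a log axis) of the 7 purinergic genes with a probe set (y axis, numbered from the brightest), with 1 array per pool and dashed and dotted lines at the detection floors of 64.6 and 74.1. All 3 probe sets of Nt5e and all 3 of Entpd1 have the MSU square to the right of the control circle, whereas the brightest P2rx4 and P2rx7 probe sets and those of P2ry6 and Panx1 have it to the left.

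**Figure D2:**
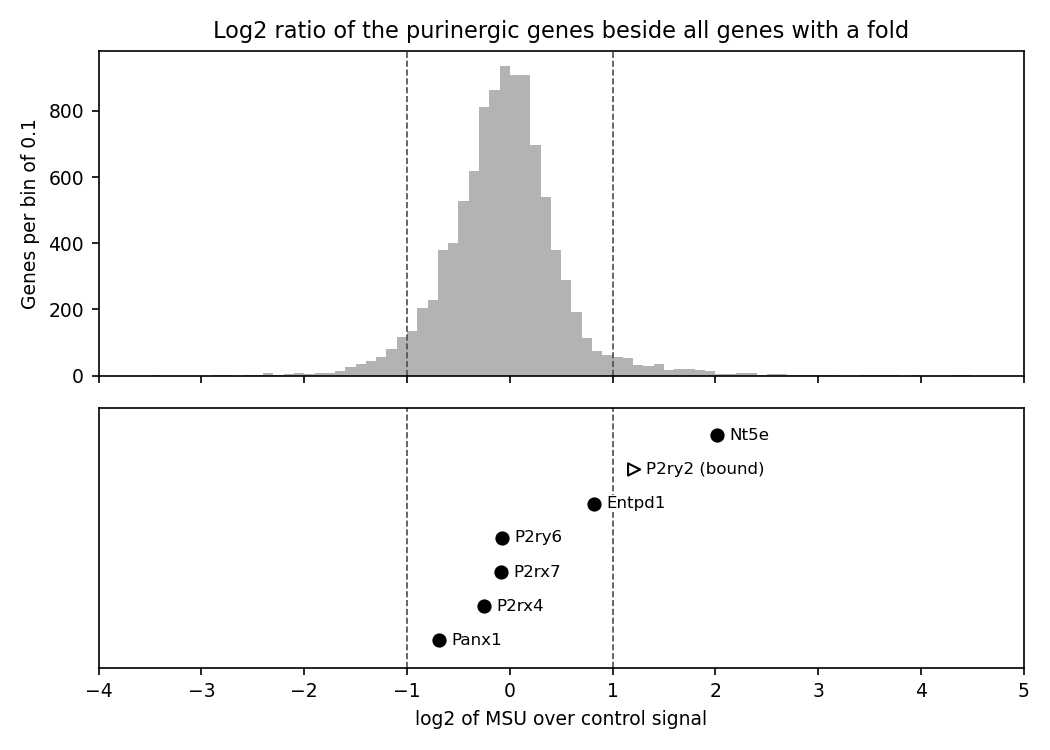
Ratio of MSU to control signal on a log2 axis (x) for the 10045 genes with a fold (upper panel, number of genes per bin of 0.1) and for the 7 purinergic genes (lower panel, 1 row per gene, filled circles for folds and an open triangle for a bound), 1 array per pool, with dashed lines at 2-fold. Nt5e lies at 2.01 in the upper tail, Entpd1 at 0.82 inside the 2-fold line, and Panx1 at -0.69.

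Nt5e encodes CD73, the enzyme that makes adenosine from AMP at the cell surface. Its brightest probe set read 83.5 in control and 336 in MSU, a log2 ratio of 2.01 that only 59 of the 10045 genes with a fold exceeded. The control signal was close to the floor, at 1.29 times its value. Another probe set had 59.4 and 176, at least 2.73-fold higher, and the dimmest 57.1 and 80.1, at least 1.24-fold higher. The MSU signal was thus the higher one on 3 of 3 probe sets, with plain ratios from 1.40 to 4.03, and 2 of the 3 passed 2-fold. Adding each floor as a pseudocount brought the log2 ratio down to 1.47.

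Entpd1 encodes CD39, which supplies the AMP that CD73 uses. The probe set that represents it read 238 in control and 419 in MSU, a log2 ratio of 0.82 at the 95.2th percentile of the genes with a fold. The other 2 probe sets had 112 and 229, which is 2.03-fold higher, and 102 and 237, which is 2.32-fold higher. All 3 probe sets thus lay above both floors and were higher in the MSU pool, with a mean log2 ratio of 1.02 ± 0.20 (SD between the 3 probe sets, which are not replicates). Entpd1 was not counted as 2-fold higher because its brightest probe set was below this size. Counting a gene where any of its probe sets passed 2-fold, a choice made after the values were seen, gave 3 of the 7 genes, beside 566 of all genes in place of 413.

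P2ry2 encodes a receptor for ATP and UTP that couples to G proteins and is known for guiding phagocytes towards dying cells. Its only probe set read 32.2 in control, under the floor, and 149 in MSU, or 2.02 times the floor. The plain ratio was 4.64, and the bound against the control floor was at least 2.31-fold. With the floor of each array at its 15000th highest signal, the bound was 0.37 on the log2 scale, under 2-fold. The neighbouring gene P2ry6, with no protein-coding gene between the pair on chromosome 7, encodes the receptor for UDP. It had signals of 690 and 653 and was 1.06-fold lower, so that these neighbours did not differ alike.

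P2rx4 and P2rx7, which encode channels opened by ATP, are neighbours on chromosome 5 with 0 protein-coding genes between them. P2X7, which needs far more ATP to open than P2X4, is known for setting off the release of mature IL-1β from macrophages. The brightest probe set of P2rx4 gave 919 in control and 771 in MSU, or 1.19-fold lower, and the next had 736 and 635, which is 1.16-fold lower. Both differences were smaller than the SD of 0.42 (log2) between the 3 P2rx4 probe sets above both floors. The dimmer probe sets of P2rx4 pointed in opposite directions, with 82.8 and 116.6 on one, or 1.41-fold higher, and 72.3 and 42.5 on the other, which was above the floor in the control pool alone.

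The brightest probe set of P2rx7 had signals of 223 and 210, which is 1.06-fold lower. Its next probe set had 119 and 89.2, or 1.34-fold lower, and its dimmest 51.0 and 76.0, at least 1.18-fold higher. No probe set of either channel gene passed 2-fold. With the median signal over its probe sets taken in each pool, P2rx4 had a log2 ratio of 0.14 in place of -0.25. This median mixes signals of different probe sets, and 3 of the 4 P2rx4 probe sets had the lower signal in the MSU pool.

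Panx1 encodes pannexin 1, a channel of the plasma membrane through which cells release ATP. Its only probe set gave 174 in control and 108 in MSU, or 1.61-fold lower. Of the 10045 genes with a fold, 10.3% had a lower ratio than Panx1.

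The members at 2-fold or more, Nt5e and P2ry2, are shown by the 250 bases before their start sites, 5′ to 3′ on the strand of the gene, from RefSeq on the mouse build GRCm38.p6. Capitals mark the GC box (GGGCGG) and the hypoxia response core (ACGTG or GCGTG), each searched on both strands, with overlapping matches run together. The Nt5e sequence lies at chr9:88327359-88327608 on the plus strand and the P2ry2 sequence at chr7:101012054-101012303 on the minus strand, before the outermost of the start sites RefSeq gives for P2ry2.
Nt5e: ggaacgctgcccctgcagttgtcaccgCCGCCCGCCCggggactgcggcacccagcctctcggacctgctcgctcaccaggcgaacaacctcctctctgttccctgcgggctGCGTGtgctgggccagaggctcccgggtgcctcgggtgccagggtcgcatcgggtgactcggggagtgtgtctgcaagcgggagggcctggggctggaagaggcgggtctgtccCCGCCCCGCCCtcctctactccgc
P2ry2: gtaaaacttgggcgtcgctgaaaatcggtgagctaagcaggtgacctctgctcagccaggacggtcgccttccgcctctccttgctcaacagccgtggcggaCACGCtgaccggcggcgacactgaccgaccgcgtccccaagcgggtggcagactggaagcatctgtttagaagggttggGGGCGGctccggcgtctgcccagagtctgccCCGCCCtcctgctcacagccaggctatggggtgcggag
Both windows hold the GC box, as do 32.7% of the 32851 promoter windows of this length, and both hold the hypoxia response core, as do 38.6%. Their share of G and C was 72.0% for Nt5e and 65.2% for P2ry2, beside a median of 52.4% over all windows, and both motifs contain the letters CG. Neither holds the letters of the cyclic AMP response element (TGACGTCA, in 1.55% of all windows) or its core TGACG (17.8%), of the AP-1 motif TGANTCA (6.75%) or of the NF-κB motif (7.25%). A match of letters is not a binding site, and a missing match says nothing of a factor outside this window. Genes that were not at 2-fold held the same letters: the hypoxia response core was in a window of Entpd1 and in that of Panx1, and the GC box in a window of P2rx7. The core TGACG was in windows of Entpd1, P2rx4 and Panx1. P2ry6 had no window in the table.

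The rest of the pathway was taken from 11 lists of 88 genes, of which 81 had a probe set and 61 were measured. Of these 61, 6 passed 2-fold upwards in the MSU pool and 1 downwards, beside 3.7% and 4.29% of all 11155 measured genes. The median log2 ratio of the 59 that had a fold was -0.08, beside -0.05 over all genes with a fold. The 6 pathway genes that were higher were Gja1, Pde4b, Thbs1, Nr4a3, Nlrp3 and Il1b, and the 1 that was lower was Ada. Under scaling on the spike-ins 4 were higher and 8 lower, and Gja1 and Nr4a3, at log2 ratios of 0.97 and 0.80, were no longer at 2-fold. The 8 that were lower were Ada, Adk, Ankh, Nt5c, Nt5c3, Nt5c3b, Adcy6 and Casp1. In the lists of release, receptors and surface enzymes, 11 genes were measured, with a median log2 ratio of -0.02. Of these 11, without this scaling, 1 (Gja1) passed 2-fold upwards and 0 downwards. The other genes past 2-fold upwards came from the lists of cyclic AMP relay, cyclic AMP responsive genes and P2X7 to interleukin-1.

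Among the other routes of ATP release, Gja1 alone passed 2-fold. Gja1 encodes connexin 43, which forms gap junctions and channels that can let ATP out of the cell. Its brightest probe set gave 2144 in control and 5782 in MSU, or 2.70-fold higher, the opposite direction to Panx1, and its 6 probe sets were 1.63- to 3.17-fold higher. The vesicular nucleotide transporter Slc17a9 was 1.34-fold higher, which turned to lower once scaled on the spike-ins, and the volume-regulated channel subunit Lrrc8a had 453 and 410. Ankh was 1.70-fold lower, and passed 2-fold downwards under scaling on the spike-ins, at a log2 ratio of -1.22. Panx2, Panx3 and Abcc6 were below the floor in both pools.

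The other receptors read at most 1.7 times the floor of their array. None of the 5 other P2X channel genes was measured, and P2rx2, P2rx3 and P2rx5 were below the floor in both pools. P2rx1, at 64.7 and 68.5, and P2rx6, at 70.4 and 68.4, were above it in the control pool alone. Their signals were close in both pools, and the MSU floor was the higher one. Of 6 other P2Y receptor genes, P2ry12, P2ry13 and P2ry14 were measured and all had a fold under 2. P2ry12, the ADP receptor of platelets and microglia, had 109.6 and 78.1 and was 1.40-fold lower, P2ry13 had 99.8 and 98.7, and P2ry14, the receptor for UDP-glucose, had 100.5 and 114, which spike-in scaling turned to lower. The adenosine receptor Adora3 was below the floor in both pools, at 24.5 and 26.1.

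None of the other measured enzymes listed as cutting nucleotides passed 2-fold, though Nt5c, Nt5c3 and Nt5c3b did so downwards under scaling on the spike-ins. Of 8 further surface enzymes, 6 had a probe set and 4 were measured, and none of the 4 passed 2-fold in either direction. Entpd2, a relative of CD39 that mostly cuts ATP to ADP, had 408 and 291 and was 1.40-fold lower, and Entpd3 had 72.5 and 121 and was 1.67-fold higher. The phosphatase Alpl, which can also make adenosine, was 1.33-fold higher, which turned to lower once scaled on the spike-ins, and Enpp3 was 1.41-fold lower. Of the nucleotidases inside the cell, which act on nucleotides other than those at the surface, 5 were measured with a median log2 ratio of -0.56, and Nt5c was 1.68-fold lower. The 4 measured nucleoside diphosphatases inside the cell (Entpd5, Entpd6, Entpd7 and Cant1) had log2 ratios between -0.21 and 0.16.

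Among the genes of adenosine uptake and removal, Ada alone passed 2-fold, and under scaling on the spike-ins Adk did so as well, downwards at a log2 ratio of -1.06. Of 8 measured, 6 had the lower signal in the MSU pool, and 1 passed 2-fold downwards and 0 upwards. The median log2 ratio was -0.34, while 5521 of the 10045 genes with a fold had the lower signal in the MSU pool. Ada encodes adenosine deaminase, which turns adenosine into inosine, and read 361 in control and 173 in MSU, or 2.09-fold lower on its only probe set. Adenosine kinase (Adk), which returns adenosine to AMP, had 972 and 640 and was 1.52-fold lower, and 1.56-fold lower on its other probe set above both floors. The uptake carrier Slc29a1 had 392 and 288 and was 1.36-fold lower. Dpp4, a surface protease listed because it binds adenosine deaminase in several species, was 1.39-fold lower. Whether its mouse form does so was not examined here. Purine nucleoside phosphorylase (Pnp), the step after adenosine deaminase, was 1.05-fold lower, at 2128 and 2019. Of these 8 genes, Slc29a4 and Ahcy had the higher signal in the MSU pool, by 1.12- and 1.03-fold, and spike-in scaling turned both to lower.

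**Figure D3:**
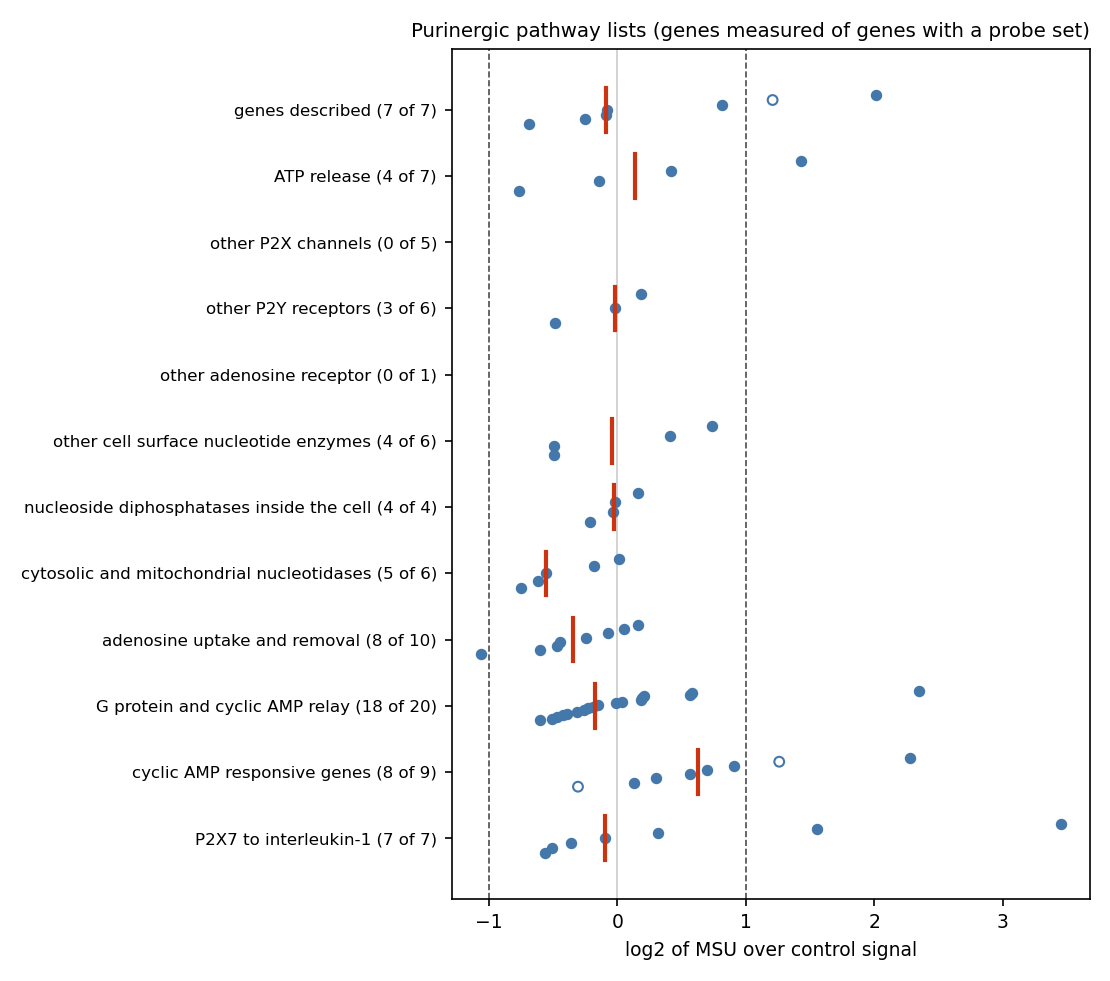
Ratio of MSU to control signal on a log2 axis (x) for the measured genes of the set described and of 11 lists of the wider pathway (y axis, with the number measured of those with a probe set), 1 array per pool. Folds are filled and bounds open, red bars are medians over the folds, dashed lines mark 2-fold, and the height of a point within its row has no meaning. Adenosine removal has a median of -0.34 with Ada left of the 2-fold line, and the cyclic AMP responsive genes one of 0.63.

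The G proteins and enzymes that relay these receptors were measured for 18 of 20 genes. Of these 18, 11 had the lower signal in the MSU pool, beside 5521 of the 10045 genes with a fold. Only Pde4b, a phosphodiesterase that breaks down cyclic AMP in leukocytes, passed 2-fold, with 231 and 1177 on its brightest probe set, or 5.10-fold higher. The other probe sets of Pde4b above both floors were 4.30- and 3.63-fold higher. The G protein subunit Gnas, which activates adenylate cyclase, had 3710 and 3170 and was 1.17-fold lower, and Gnai2 and Gnai3, which inhibit it, were 1.16- and 1.48-fold higher. Adcy7, the adenylate cyclase common in blood cells, had 1641 and 1152 and was 1.42-fold lower. The direction of Gnai2 turned under scaling on the spike-ins, and Adcy6 then passed 2-fold downwards, at a log2 ratio of -1.05.

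Genes known to respond to cyclic AMP, which other signals also induce, had a median log2 ratio of 0.63 over the 6 with a fold. All 6 had the higher signal in the MSU pool, beside 4523 of the 10045 genes with a fold. Under scaling on the spike-ins 4 of the 6 kept this direction, and Per1 and Nr4a2 turned. Thbs1, which encodes the matrix protein thrombospondin 1, had 1101 and 5331 and was 4.84-fold higher, and Nr4a3, an orphan nuclear receptor, had 60.8 and 155 and was at least 2.40-fold higher. Crem was 1.87-fold higher, Nr4a1 1.48-fold higher and Per1 1.23-fold higher. Fosb was above the floor in the control pool alone and at least 1.24-fold lower.

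Downstream of P2X7, 7 genes were measured, 3 with the higher and 4 with the lower signal in the MSU pool, and the median log2 ratio was -0.09. Il1b, the cytokine whose release P2X7 triggers, was 10.9-fold higher, and the inflammasome sensor Nlrp3 2.94-fold higher. Nek7, which links potassium loss through such channels to NLRP3, was 1.29-fold lower, at 740 and 576. Casp1, the protease that cuts the IL-1β precursor, was 1.48-fold lower and passed 2-fold under scaling on the spike-ins, with a log2 ratio of -1.02. Its adaptor Pycard was 1.42-fold lower, and the cytokine Il18 1.07-fold lower. Gsdmd, whose product forms the pore for IL-1β, was 1.24-fold higher, which turned to lower once scaled on the spike-ins.

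Markers of the cells that can carry these genes were read beside them. Neutrophil markers were at least 2-fold higher for 11 of 12 measured of 13 with a probe set, and their summed signal was 3582 in control and 27164 in MSU. Ltf was 1.45-fold lower, and Camp was below the floor in both pools. The summed signal of 15 resident macrophage markers was 35272 and 35836, though single markers went both ways. Of the 14 with a fold, 6 were higher and 8 lower, with a median log2 ratio of -0.15. Cd163 was 1.94-fold higher and Cd68 1.72-fold lower, and 2 were at least 2-fold lower (Trem2 and Folr2). The summed signal of 11 fibroblast markers was 59767 and 67468, and that of 12 endothelial markers 1986 and 1805. No fibroblast or endothelial marker passed 2-fold as a fold or bound. The endothelial marker Vwf had 107.9 in control and 22.9, under the floor, in MSU, a bound of at least 1.46-fold lower and a plain ratio of 0.21. Of 6 T cell markers 5, among them Cd3e, Cd3d and Cd4, were below the floor in both pools. Adipocyte markers were lower, with 7 of 8 at least 2-fold lower and a summed signal of 11126 and 2424, and 5 of 11 skeletal muscle markers were at least 2-fold lower, with 39694 and 23889. The part of these cell types in the ratios of Nt5e, Entpd1, P2ry2, Panx1 and Ada was not tested.

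**Figure D4:**
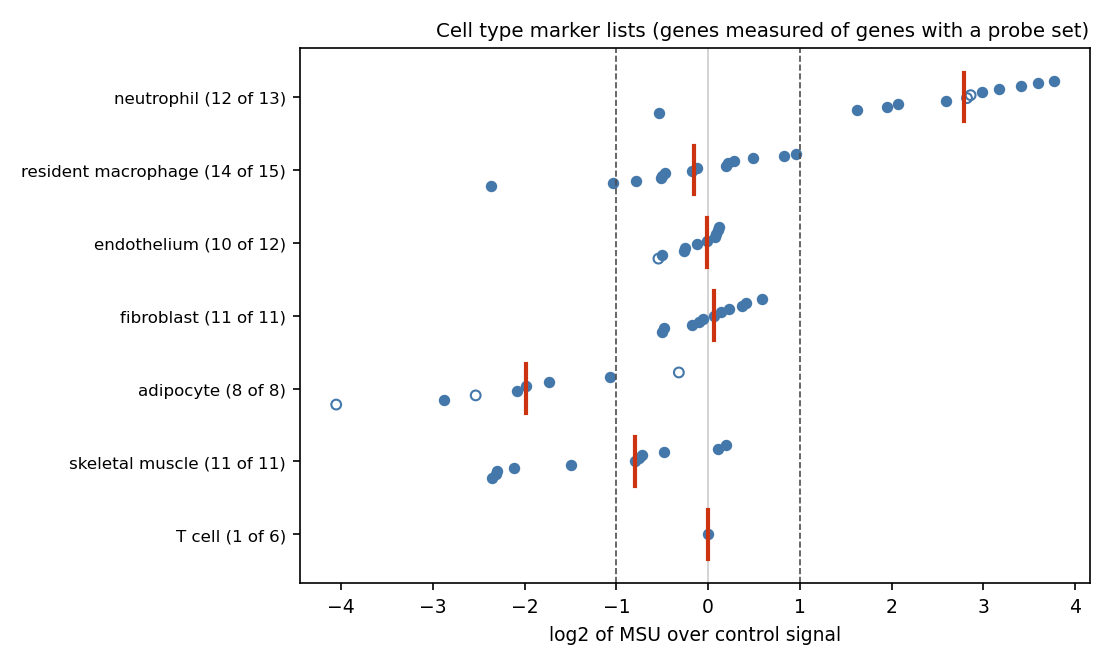
Ratio of MSU to control signal on a log2 axis (x) for the measured markers of 7 cell types (y axis, with the number measured of those with a probe set), 1 array per pool. Folds are filled and bounds open, red bars are medians over the folds, dashed lines mark 2-fold, and the height of a point within its row has no meaning. Neutrophil markers have a median of 2.79, fibroblast and endothelial markers medians of 0.06 and -0.01, and adipocyte markers one of -1.99.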

How the data were processed

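Membrane RNA of 3 mice per condition was pooled before labelling, and 1 array was hybridized per pool. The deposited values are intensities on a linear scale, 1 per probe set and array. The authors computed them with Affymetrix GCOS; the submitters' processing notes list MAS5, with its version not given in the sources used. Leaving out 2% of probe sets at each end, the mean is 150.0 on both arrays. They were used as deposited.

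Gene names came from the platform annotation, which gives 34958 of 45101 probe sets a single gene, 932 several and does not list 9211. Probe sets with several genes and the 64 control probe sets were not used. Symbols were updated with RefSeq for GRCm38.p6. With probe sets ranked by signal, the floor of an array is the value at the rank equal to the number that the study called detected. Detection calls per probe set were not used here, so a single probe set can differ from its call. Bounds needed a signal above the floor of the other array. MAS5 signals of different probe sets are not on a common scale, so levels were not compared between genes, and summed marker signals are compared between pools only.

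The genes described and the 18 lists (168 symbols, 157 with a probe set) were chosen with earlier results of these data known. All genes described are named, and of the pathway lists those past 2-fold and some of those with the highest signal. Cell lists are given mostly by counts and summed signals. Other genes, such as receptors near or under the floor, were named after their values were seen. No p-value was computed. Alternatives were other scalings, floors, probe set rules and a size of 3-fold. The computation was tested on simulated data, with changes planted only in genes far above the control floor. Planted changes at signals like those of Nt5e and P2ry2 in control were not tested. Python 3.11.15, pandas 2.3.3 and numpy 2.4.6 were used.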

Additional observations from a re-analysis of the deposited data

How the results depend on the processing

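With 1 array per pool no replicate could be left out, and no paired analysis was possible because each group has 1 sample. A value was taken to have moved where it changed by more than 0.33 (log2), the pooled SD between probe sets of a gene, and a count where it changed by over 1.5 times. Nt5e, Entpd1 and P2ry2 had log2 ratios or bounds above 0, and P2rx7, P2ry6 and Panx1 below 0, in all 8 alternatives that give a ratio or bound. The sign of a bound follows from which pool is above its floor, so it adds nothing on direction. P2ry2 was a bound except with no floor or with the floors as a pseudocount. Nt5e and Panx1 were bounds with the floor at the 15000th highest signal, and Nt5e with the median over probe sets. Leaving out probe sets ending in _x_at or _s_at could not change these values, because none of the genes described has such a probe set. With no floor or the floor at the 15000th highest signal, Entpd1, P2rx4, P2rx7 and P2ry6 repeated their main values, being above both floors throughout. For these genes such settings add nothing on direction. Nt5e ranged from 1.45 to 2.01, Entpd1 from 0.36 to 1.07 and P2ry2 from 0.37 to 2.21. Scaling on the spike-ins gave 1 of the 7 genes described at least 2-fold higher and 1 lower, a median of -0.54, 4 and 8 wider pathway genes higher and lower in place of 6 and 1, and 200 and 1787 of all genes higher and lower, of which 10.1% were higher in place of 46.4%. With the higher floor, 1 of the 7 was higher. With no floor, 10 and 4 wider pathway genes and 1623 and 1724 of all genes were higher and lower. With the floors as a pseudocount, 0 wider pathway genes and 218 of all genes were lower, and 60.4% of all genes past 2-fold were higher. At 3-fold, 1 of the 7, 3 and 0 wider pathway genes, and 164 and 80 of all genes passed. The spike-in shift, the floors and the larger size are built into these settings; no other cause was tested. Taking the median signal over probe sets in each pool added Entpd1 to the genes past 2-fold, at 1.07, with the medians of the pools coming from different probe sets. Signal near or under the floor in control limits the ratios of Nt5e and P2ry2.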
